A study of Rattus norvegicus with 17 samples.

Results

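The genes described here were measured in the rat meibomian gland (MG), the sebaceous gland of the eyelid that secretes the oil layer of the tear film. The 7 genes were taken by name: Jchain, Mzb1, Cd79a, Cd79b, Ms4a1 and Pou2af1, which are genes of B cells and plasma cells, and Pigr, which encodes the epithelial receptor for their antibodies. All 7 were found among the 17251 genes with deposited values. The tissue came from 17 female Sprague-Dawley rats aged 10 to 12 weeks, wild-type (WT) or P1.hMR. P1.hMR rats carry the human mineralocorticoid receptor (MR, gene NR3C2) under its own proximal promoter P1, which drives expression in tissues that normally make MR. Control rats were not irradiated, and UVB rats had the eyelids exposed to UVB for 5 days. There were 4 WT and 5 P1.hMR controls, and 3 WT and 5 P1.hMR rats with UVB. Each rat gave 1 bulk library, in which fewer cells of a type and less RNA per cell cannot be told apart.

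B cells carry a receptor made of a membrane antibody and the signalling pair Cd79a and Cd79b, and most of them also display Ms4a1 (CD20). Plasma cells, their descendants, secrete antibody. At mucosal surfaces Jchain joins antibody units into dimeric IgA or pentameric IgM, Mzb1 is a chaperone of antibody assembly in the endoplasmic reticulum, and Pou2af1 is a coactivator that binds octamer factors on antibody gene promoters. Pigr stands on the other side of this route: epithelial cells use it to carry J chain-containing antibody to their surface, where it is cut and released as secretory component. In the ocular surface this route is best known from the lacrimal gland and the conjunctiva.

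Of the genes with a result, Pigr moved most, so its promoter is shown. The RefSeq table of assembly GRCr8 held a promoter for 3 of the 7 genes, Jchain, Cd79a and Pigr. The window for Pigr below runs from 150 bases before to 30 bases after its annotated start, on the plus strand at chr13:44851032-44851211. Capitals mark an E-box (CACGTG), which begins 73 bases before the start and is a known type of regulatory element of this gene, and a match to the interferon regulatory factor core AANNGAAA, read here on the reverse strand from base 5 after the start.

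Pigr promoter: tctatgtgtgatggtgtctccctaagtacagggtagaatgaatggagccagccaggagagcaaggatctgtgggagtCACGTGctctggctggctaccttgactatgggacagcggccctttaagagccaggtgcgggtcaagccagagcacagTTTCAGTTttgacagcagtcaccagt

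Both motifs were searched on both strands of the full 300-base windows, and both were picked after the Pigr window had been seen. The E-box letters stood in 6.42% and the interferon regulatory factor letters in 26.4% of 33469 promoters of the same length. The octamer ATGCAAAT, the site type of the factors that Pou2af1 assists, stood in 1.78% of them, and these letters were in none of the windows of Jchain, Cd79a and Pigr. A match of letters is a description and not a bound site.

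Values are TPM, a level per transcript length and per sample total. TPM keeps no read depth, so the depth behind each value is unknown. The column totals ran from 804378 to 840817 TPM and 12372 to 12737 genes per rat reached 1 TPM. The transgene was at 0 TPM in every WT rat and between 5.31 and 9.31 TPM in every P1.hMR rat. All 12 meibocyte markers examined passed the filter of 1 TPM in 3 rats, with summed levels of 40478 to 57569.6 TPM per rat, and 8 skeletal muscle genes and 11 hair keratins were present too. No 0 was listed in any rat for any of 10 housekeeping genes.

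The B cell and plasma cell genes were at the lower end of the range of this tissue. Jchain and Cd79a had a mean of 0.995 and 0.914 TPM over the 17 rats, at the 26.5th and 25.8th percentile of all genes by mean level. Mzb1, Cd79b, Ms4a1 and Pou2af1 lay lower still, with means of 0.0547, 0.0329, 0.00647 and 0.0153 TPM. None of these 4 genes reached 1 TPM in any rat, so they did not pass the filter for testing, which asked for 1 TPM in at least 3 rats. Pigr, at a mean of 3.37 TPM and the 37.5th percentile, was the highest of the 7. Jchain, Cd79a and Pigr, 3 of the 7, were tested.

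Ms4a1, the surface protein by which mature B cells are usually recognised, was listed at 0 in 15 of 17 rats. The other 2 values were 0.05 TPM in Control WT rat 1 and 0.06 TPM in Control P1.hMR rat 5. All 8 UVB rats were at 0. Cd79b, which pairs with Cd79a, was at 0 in 11 rats and reached 0.21 TPM in Control P1.hMR rat 1 and 0.13 TPM in UVB WT rat 1. Its other non-zero values were 0.06 and 0.05 TPM in Control WT rats 1 and 2, 0.05 TPM in UVB WT rat 3 and 0.06 TPM in UVB P1.hMR rat 5. Cd79b was thus below Cd79a in every library.

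Mzb1 was at 0 in 10 rats. It was above 0 in 3 of 4 Control WT rats, at 0.1, 0.15 and 0.3 TPM, in 2 of 5 Control P1.hMR rats, at 0.08 and 0.11 TPM, in 1 of 3 UVB WT rats, at 0.1 TPM, and in 1 of 5 UVB P1.hMR rats, at 0.09 TPM. The ranges of all groups overlapped at 0. Pou2af1 was at 0 in 10 rats and at most 0.07 TPM elsewhere. With no read counts, the limit that a value of 0 sets on these 4 genes cannot be given. Without the filter, none of these 4 was called in any comparison, on a scale that understates changes at such low levels.

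**Figure D1:**
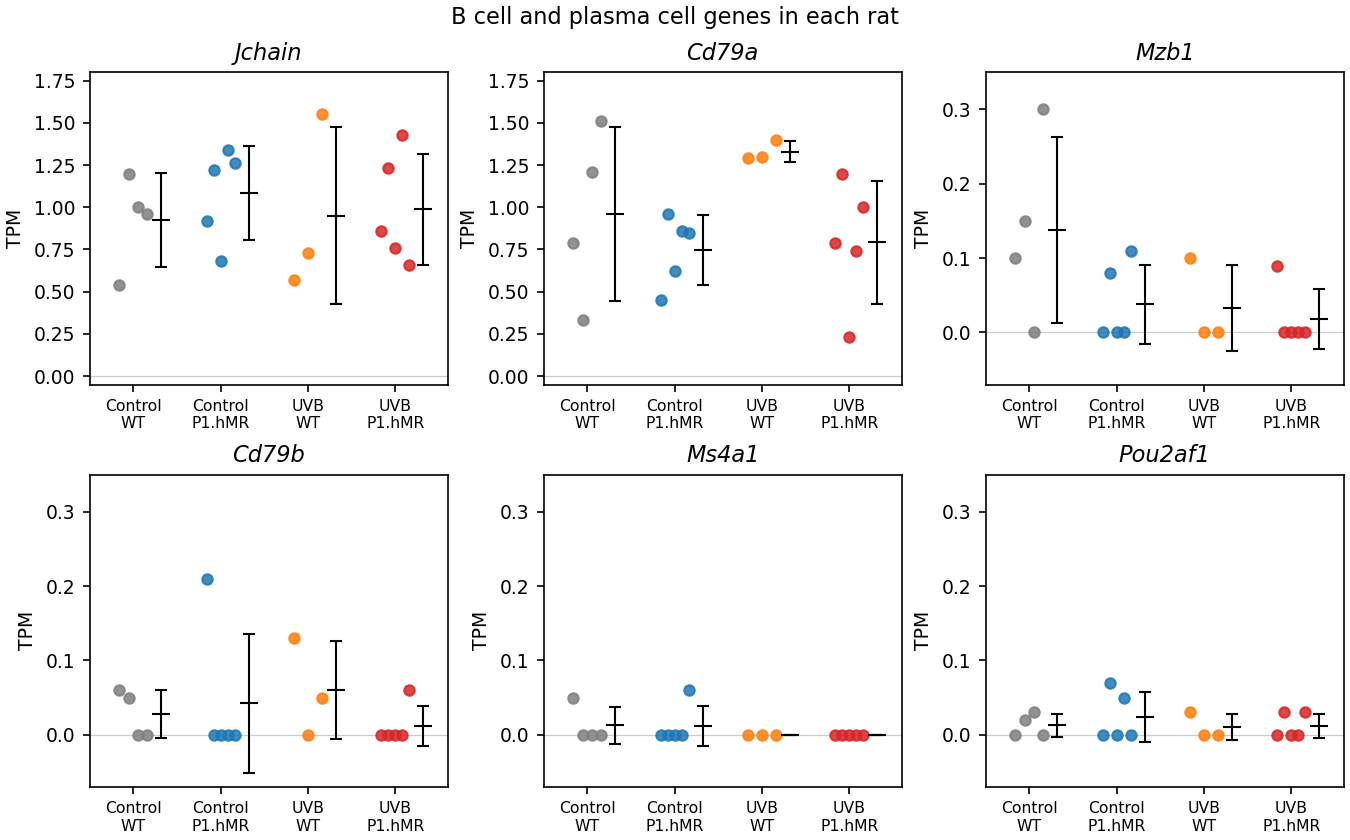
TPM of the 6 B cell and plasma cell genes (vertical axis, 1 scale in the panels of Jchain and Cd79a and a finer one in the other 4) in each rat of the 4 groups (horizontal axis). Points are rats, and the black mark and bar beside them are the mean and SD; Jchain and Cd79a lie between 0.23 and 1.55 TPM and the other genes at or below 0.3 TPM, many of them at 0.

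Jchain was above 0 in all 17 rats. It measured 0.54, 1.2, 1 and 0.96 TPM in Control WT rats and 0.92, 1.22, 0.68, 1.34 and 1.26 TPM in Control P1.hMR rats. After UVB it measured 0.57, 0.73 and 1.55 TPM in WT rats and 0.86, 1.23, 0.76, 1.43 and 0.66 TPM in P1.hMR rats. High and low rats occurred in each group and all 4 ranges overlapped. The widest spread was in UVB WT, where rat 3 held more than the other two.

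For Jchain, the log2 fold change on the log2(TPM + 1) scale was -0.0021 for UVB in WT rats (95% interval -0.39 to 0.39) and -0.073 for UVB in P1.hMR rats (95% interval -0.39 to 0.25). Between genotypes it was 0.12 without UVB and 0.045 with UVB. Its limma adjusted p lay between 0.736 and 0.998 in the 7 comparisons made. Both UVB intervals stayed within 0.5 either side of 0, on a scale that understates the change of genes near 1 TPM.

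Cd79a, also above 0 in all 17 rats, measured 0.79, 0.33, 1.21 and 1.51 TPM in Control WT and 0.45, 0.96, 0.62, 0.86 and 0.85 TPM in Control P1.hMR rats. In UVB WT rats it was 1.29, 1.3 and 1.4 TPM, the narrowest group of the series for this gene. In UVB P1.hMR rats it was 0.79, 1.2, 0.23, 0.74 and 1 TPM. The UVB WT rats all lay above the UVB P1.hMR rats, and every other pair of groups compared overlapped. How many of all genes separated the genotypes under UVB was not counted.

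UVB P1.hMR rats had on average 0.595 times the Cd79a level of UVB WT rats (log2 fold change -0.40, 95% interval -0.82 to 0.0083). That difference was not called by limma with Benjamini-Hochberg adjustment (adjusted p = 0.492), and over all genes 0.0229% were called in this comparison. For UVB, Cd79a stood at 0.29 on the log2 scale in WT rats (95% interval -0.14 to 0.72, adjusted p = 0.332 in limma) and at 0.018 in P1.hMR rats (95% interval -0.34 to 0.38, adjusted p = 0.945). Neither passed the test.

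Summed over the 6 genes, the level was 2.08 ± 0.548 TPM (SD, n = 4) for Control WT, 1.95 ± 0.475 TPM (SD, n = 5) for Control P1.hMR, 2.38 ± 0.536 TPM (SD, n = 3) for UVB WT and 1.82 ± 0.555 TPM (SD, n = 5) for UVB P1.hMR rats. The difference between any 2 of these means was about as large as the SD within the groups, or smaller. Nearly all of the sum was Jchain and Cd79a.

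Pigr was above 0 in all 17 rats and spanned 0.77 to 10.91 TPM. In Control WT rats it measured 2.88, 4.11, 3.13 and 3.09 TPM, averaging 3.3 ± 0.549 TPM (SD, n = 4). In Control P1.hMR rats it measured 5.3, 4.43, 3.37, 7.21 and 10.91 TPM, averaging 6.24 ± 2.96 TPM (SD, n = 5). The control groups overlapped, and the highest 2 rats of the series were both Control P1.hMR.

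After UVB, Pigr measured 2.87, 1.27 and 1.06 TPM in WT rats, a mean of 1.73 ± 0.99 TPM (SD, n = 3). In UVB P1.hMR rats it measured 1.67, 1.22, 0.81, 3.2 and 0.77 TPM, a mean of 1.53 ± 1 TPM (SD, n = 5). Within each genotype, every UVB rat lay below every control rat, by a margin that was narrow at the nearest pair. In WT that pair was 2.87 against 2.88 TPM, and in P1.hMR 3.2 against 3.37 TPM. How many of all genes separated in this way was not counted. Over all genes, 35.3% had an unadjusted limma p under 0.05 for UVB in WT and 47.6% in P1.hMR rats. In order of mean level the groups ran downward from Control P1.hMR through Control WT and UVB WT to UVB P1.hMR. Neighbours in this order were not called different from each other.

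**Figure D2:**
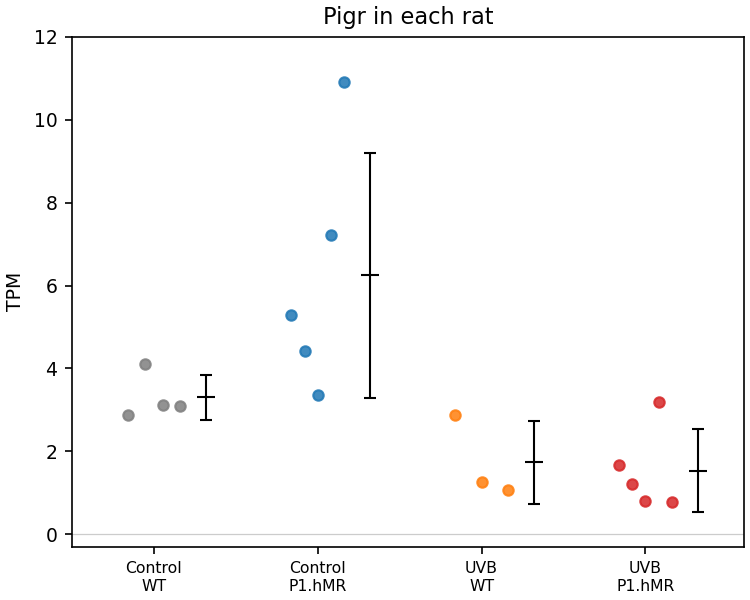
TPM of Pigr (vertical axis) in each rat of the 4 groups (horizontal axis), with the mean and SD as a black mark and bar. Control P1.hMR rats reach 10.91 TPM, and UVB rats of each genotype lie below the controls of that genotype.

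In P1.hMR rats, Pigr fell with UVB to 0.246 times the control mean. The log2 fold change was -1.50 (standard error 0.27, 95% interval -2.07 to -0.93) and limma with Benjamini-Hochberg adjustment called it (adjusted p = 0.000409). It was the 1 gene called among the 3 tested, in a comparison in which 10.8% of all genes were called. With a pseudocount of 0.1 in place of 1, the log2 fold change was -2.03. It was called with each rat left out in turn, between -1.71 and -1.30.

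In WT rats, the UVB mean of Pigr was 0.525 times the control mean. The log2 fold change was -0.70 (standard error 0.32, 95% interval -1.39 to -0.017), and it did not pass the test (limma adjusted p = 0.132). None of the 3 genes was called in this comparison, in which 7.91% of all genes were, and 1 of them, Pigr, had an unadjusted limma p under 0.05. UVB WT rat 1 stood apart from the other two, and without it the log2 fold change was -0.98.

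Averaged over genotypes, UVB changed Pigr by a log2 fold change of -1.10 (standard error 0.21, 95% interval -1.55 to -0.66), which was called (limma adjusted p = 0.000484). It was again the 1 gene of 3 called, against 9.48% of all genes. Jchain and Cd79a stood at -0.037 and 0.15 in the same comparison and were not called. This average rests on the same rats as the comparisons within genotypes.

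The response of Pigr in P1.hMR rats was not shown to differ from that in WT rats. The interaction of genotype and UVB was -0.80 (standard error 0.42, 95% interval -1.69 to 0.093), with an adjusted p = 0.758 in limma. Of all 13105 genes tested, 0 (0%) were called for the interaction by limma and 907 had an unadjusted p under 0.05. None of the 3 genes did.

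Between genotypes, Pigr was 1.89 times as high in Control P1.hMR as in Control WT rats by the group means. The log2 fold change was 0.67 (95% interval 0.066 to 1.27), and it did not pass the test (limma adjusted p = 0.998). Across all genes 0.00763% were called here, which is 1 gene of 13105. With UVB, the genotypes differed by -0.13 (95% interval -0.79 to 0.53, limma adjusted p = 0.92). Averaged over treatments the difference was 0.27 (limma adjusted p = 0.777), in a comparison that also called 0.00763% of genes. Without UVB WT rat 1 the difference under UVB turned to 0.15.

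**Figure D3:**
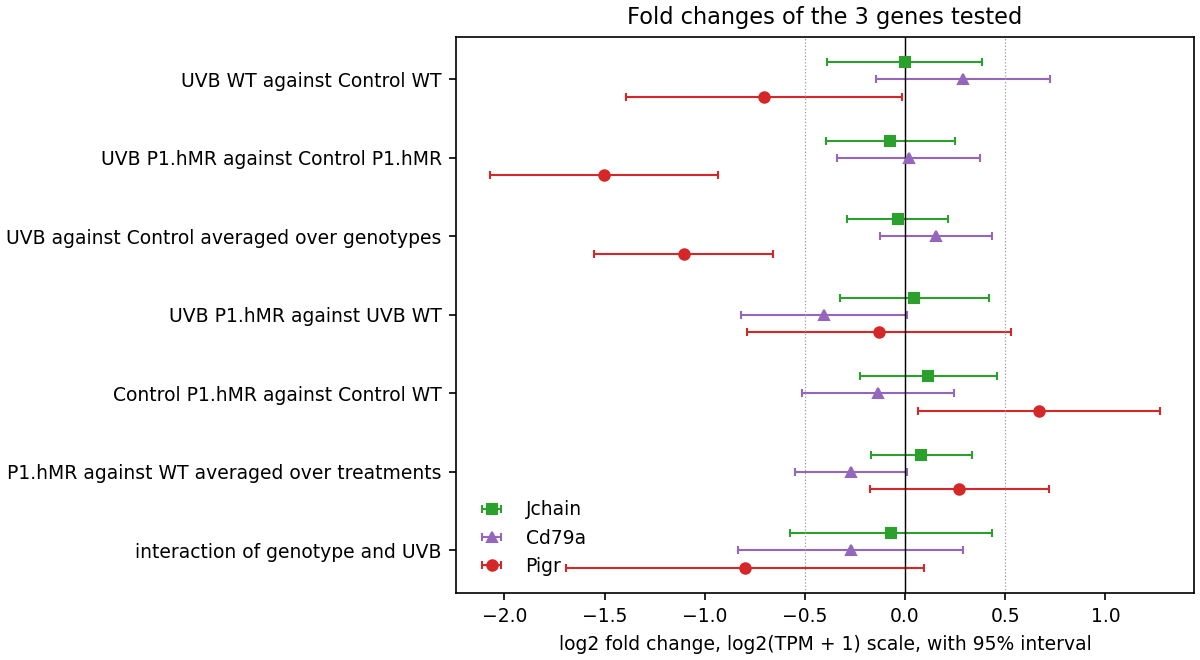
Log2 fold changes on the log2(TPM + 1) scale (horizontal axis) of Jchain, Cd79a and Pigr in the 7 comparisons (vertical axis), with 95% intervals from limma as bars and dotted lines at 0.5 either side of 0. Only Pigr has intervals wholly beyond a dotted line, for UVB in P1.hMR rats and for UVB averaged over genotypes.

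Other genes of the B cell receptor and its coreceptors gave a mixed picture of levels. Of 20 such genes, 19 were listed and 10 were tested. Cr2 (CD21), a complement receptor of B cells, reached at most 0.03 TPM, and Bank1, an adaptor of B cell signalling, 0.04 TPM. Cd22, an inhibitory receptor of B cells, lay between 0.37 and 1.03 TPM, while Fcmr, the receptor for IgM, lay between 3.09 and 6.61 TPM. The kinases Syk and Lyn and the lipase Plcg2, which also act in myeloid cells, were each above 3 TPM in every rat. These genes were singled out after their values were seen.

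None of the 10 tested was called in any of the 7 comparisons by limma. For UVB in P1.hMR rats 4 of them had an unadjusted p under 0.05, beside 47.6% of all genes tested. The median log2 fold change of the 10 was 0.11 for UVB in WT and 0.11 for UVB in P1.hMR rats, beside 0.0054 and -0.016 over all genes. The costimulatory receptor Cd40 came nearest, with 0.45 in P1.hMR rats (limma adjusted p = 0.00911), under the fold threshold of 0.5.

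Of 13 transcription factors of the B lineage, 9 were tested and none was called in any comparison. Pax5, which keeps B cells committed to their fate, ran from 0.03 to 0.48 TPM, and Pou2f2, the octamer factor partnered by Pou2af1, stayed at or below 0.33 TPM. Under UVB in P1.hMR rats, 6 of the 9 had an unadjusted limma p under 0.05, where 47.6% of all genes did. An adjusted p under 0.05 with a fold change under the threshold was found for 5 of them. Examples were Bach2, a repressor of plasma cell fate, at -0.49 (adjusted p = 0.00225) and Bcl6, a factor of germinal centre B cells, at 0.45 (adjusted p = 0.000585), both from limma. Bcl6 ranged from 26.2 to 44.1 TPM, far above the members of the B lineage, and it is expressed in other cell types as well.

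Among plasma cell genes, 10 of 15 were tested and none was called, with 5 at an unadjusted limma p under 0.05 for UVB in P1.hMR rats, a share close to the 47.6% of all genes. Their levels differed by orders of magnitude. Tnfrsf17 (BCMA), the survival receptor of plasma cells, was at most 0.21 TPM, and Irf4, a factor that plasma cells need, at most 0.77 TPM. Sdc1 (CD138) lay between 729.8 and 1054 TPM and Xbp1 between 154.2 and 173.2 TPM, and both are also made by epithelial and secretory cells. Prdm1, a driver of plasma cell fate that sebaceous cells and other epithelia also use, measured 10.1 to 19.6 TPM.

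Of 17 antibody constant region gene names searched, 2 were listed, Ighm and Ighg1. Igha, Igkc, Iglc1, Iglc2 and Iglc3 were among the names not listed, so nothing can be said of their levels. Ighg1 was at 0 in 14 rats and reached 0.05 TPM. Ighm, the heavy chain of IgM, was above 0 in all rats. It measured 1.59, 1.76, 3.79 and 3.47 TPM in Control WT rats and 2.39, 3.75, 2.7, 3.96 and 3.92 TPM in Control P1.hMR rats. After UVB it measured 1.69, 1.27 and 2.24 TPM in WT rats and 2.25, 1.57, 1.14, 1.86 and 1.04 TPM in P1.hMR rats. The P1.hMR groups did not overlap, and the WT groups did. With UVB, Ighm fell in P1.hMR rats (log2 fold change -0.76, standard error 0.19, limma adjusted p = 0.00465). In WT rats the value was -0.38, which was not called. Of all genes, 10.8% were called for UVB in P1.hMR rats and 7.91% in WT rats. The share of all genes whose groups did not overlap was not counted. Antibody genes resemble each other, and reads may have been split between them.

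Jchain, whose product joins IgM and IgA units, stood at -0.073 in the same P1.hMR rats and was not called. The difference between the 2 changes was not tested.

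Of 20 genes of B cell survival and homing, 11 were tested. Ccr7, the receptor that draws B cells, T cells and dendritic cells to lymphoid tissue, rose with UVB in WT rats (0.50, limma adjusted p = 0.0302) and in P1.hMR rats (0.68, limma adjusted p = 0.000607). Its ligand Ccl21 rose in WT rats by 0.63 on the log2 scale (limma adjusted p = 0.0266). In P1.hMR rats Ccl21 was not called. Cxcl12, of the same list, went the other way in P1.hMR rats. It averaged 39.3 TPM without and 28.05 TPM with UVB there, and was not called. Ccl28, the mucosal chemokine that draws IgA plasma cells, lay between 3.1 and 7.71 TPM and was not called. The B cell chemokine Cxcl13 lay between 0.56 and 2.21 TPM. Tnfsf13b (BAFF) stayed at or below 0.64 TPM, while Tnfsf13 (APRIL), which supports plasma cells, lay between 47.3 and 69 TPM.

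Markers of other immune cells were set beside these genes, of which Jchain and Cd79a were tested and not called. Of 9 macrophage markers, 6 rose with UVB in each genotype, where 7.91% of all genes were called in WT and 10.8% in P1.hMR rats, among them the scavenger receptor Cd163, whose log2 fold change was 2.55 in WT rats and 2.66 in P1.hMR rats. Cd68, of the same list, had -0.36 and -0.29 and was not called. Among 5 T cell markers tested, 2 rose in both genotypes, Cd8a and Cd2. Cd8a, a marker of cytotoxic T cells, had log2 fold changes of 1.07 in WT rats and 1.84 in P1.hMR rats. Under UVB it was higher in the transgenic rats by 0.89 (limma adjusted p = 0.0364). The T cell receptor components were not called, with log2 fold changes in WT and P1.hMR rats of -0.33 and -0.26 for Cd3e, -0.29 and 0.13 for Cd3g, and -0.36 and -0.37 for Cd247. The median of the 5 was -0.29 in WT rats and 0.13 in P1.hMR rats.

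**Figure D4:**
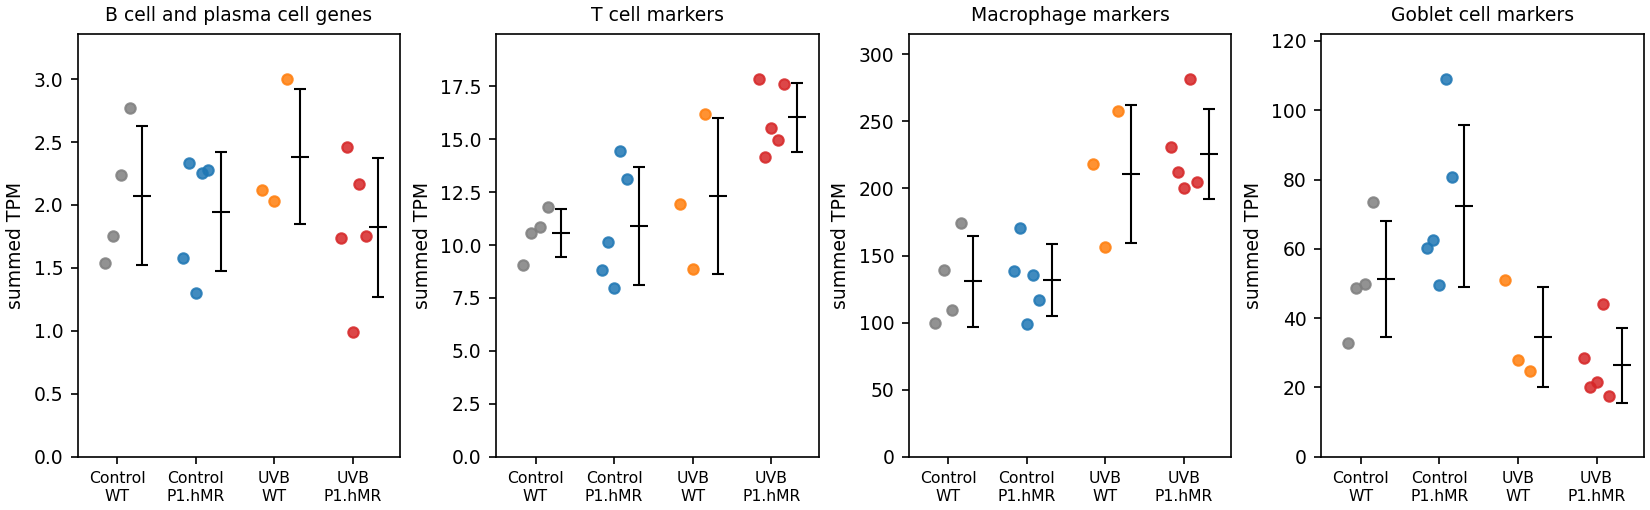
Summed TPM (vertical axes, each from 0) per rat of the 6 B cell and plasma cell genes, 13 T cell, 9 macrophage and 9 goblet cell markers in the 4 groups, with mean and SD in black. The B lineage sum stays between 0.99 and 3 TPM, macrophage sums are higher in UVB P1.hMR rats than in their controls without overlap, and goblet cell sums are lower there.

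Known regulators of Pigr include interferon and interleukin receptors and their factors. Of 21 such genes, 18 were listed and 16 tested, of which 2 were called for UVB in WT rats and 3 in P1.hMR rats. These counts are near those that the shares over all genes, 7.91% and 10.8%, would give, and nothing is read from them about the list. Irf1, the interferon regulatory factor that induces PIGR in cultured epithelial cells, fell in both. It averaged 33.5 ± 5.08 TPM (SD, n = 4) in Control WT rats against 20.1 ± 1.08 TPM (SD, n = 3) after UVB. For P1.hMR rats the means were 39 ± 1.64 TPM (SD, n = 5) without and 21.5 ± 2.47 TPM (SD, n = 5) with UVB. The log2 fold changes were -0.70 (limma adjusted p = 0.000382) and -0.84 (limma adjusted p = 4.31e-06). The UVB and control rats of neither genotype overlapped, and the share of all genes that separated so was not counted.

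Some cytokine receptors of the list moved the other way. Il1r1, the receptor for interleukin 1, rose on the log2 scale by 0.56 in WT rats and by 0.67 in P1.hMR rats. Il4r, a subunit of the interleukin 4 receptor, rose by 0.54 in P1.hMR rats (limma adjusted p = 0.000408). Il17a and Il17f, cytokines that induce Pigr at mucosal surfaces, stayed at or below 0.08 and 0.13 TPM, while their receptor subunits Il17ra and Il17rc were above 17 TPM in all rats.

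Pigr is made by mucosal epithelia, and markers of those epithelia went in both directions. Of 9 goblet cell markers listed, 5 were tested. Over all genes, 7.91% were called for UVB in WT rats and 10.8% in P1.hMR rats. For UVB in P1.hMR rats 3 of them fell, namely Fcgbp, a mucus protein that binds IgG, by a log2 fold change of -2.68, Spdef, a factor of goblet cell maturation, by -0.59 and Galnt12, a mucin glycosylation enzyme, by -0.54. Fcgbp fell from 41.8 to 6.23 TPM by group means. In WT rats none of the 5 was called, and Fcgbp stood at -1.26, Galnt12 at -0.41, Bcas1 at -0.17, Spdef at 0.47 and Agr2 at 1.23. Agr2 averaged 1.28 TPM in Control WT and 5.09 TPM in UVB WT rats, while Pigr averaged 3.3 and 1.73 TPM. The summed goblet cell level was 32.8 to 73.6 TPM without and 24.7 to 51 TPM with UVB in WT rats, and 49.6 to 109 TPM without and 17.6 to 44.2 TPM with UVB in P1.hMR rats.

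Tff1, Tff3 and Clca1, secreted goblet cell products, were at 0 in 2, 3 and 1 of 17 rats. Of 9 conjunctival epithelium genes listed, 8 were tested and 3 fell in P1.hMR rats, Muc20 by -1.73, Krt18 by -1.29 and Krt7 by -0.65, and 2 of these, Muc20 and Krt7, fell in WT rats. Krt13 and Krt4, keratins of stratified mucosal epithelium, were not called and had values above 0, namely 0.22 and 0.13 in WT rats and 0.29 and 0.15 in P1.hMR rats. The summed level of the list, most of it from these keratins, ran from 4126 to 5559 TPM without and 4994 to 6559 TPM with UVB in WT rats, and from 4637 to 5423 TPM without and 5193 to 7082 TPM with UVB in P1.hMR rats. The shares of all genes called for UVB were 7.91% in WT rats and 10.8% in P1.hMR rats. Hair keratins, 11 listed, also fell with UVB, 7 of them in WT rats and 5 in P1.hMR rats. The part of these other tissues in the Pigr result was not tested.

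Lacrimal gland tissue, the richest ocular source of Pigr, was looked for too. Of 7 lacrimal markers listed, 4 were tested and none was called in any comparison by limma. The secreted lacrimal protein Ltf was at 0 in 13 rats, Scgb3a1 in 15 rats and Bpifa2 in all 17. The summed level, most of it the lysozyme gene Lyz2 that macrophages also express, ran from 91.4 to 363 TPM. Wfdc2 and Lpo, which ducts and acini of secretory glands express, were between 13.4 and 38.7 TPM and between 0.34 and 4.53 TPM.

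The genes most like each tested member were found by Pearson's r over the 17 rats after the mean of each group had been taken off, among 13104 other genes. These values are given as a description, since each rat's deviations share its library, its dissection and its total. For Pigr the first 5 were Rwdd4 (r = 0.885), Lrrc14 (r = 0.86), Pik3ap1 (r = 0.856), Agr2 (r = 0.852) and Spdef (r = 0.839). Agr2 and Spdef are both of the goblet cell list, Agr2 being a chaperone of mucin folding. Their Spearman's rho with Pigr was 0.826 and 0.819. Without the 2 rats whose Pigr lay farthest from their group, Control P1.hMR rat 5 and UVB P1.hMR rat 4, the r was 0.768 and 0.735.

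The lists differed within themselves in their likeness to Pigr. Of 5 goblet cell genes, 4 had an r above 0.5, the exception being Bcas1 (r = 0.262). Of 8 conjunctival genes, 3 did, Muc20 (r = 0.763), Krt18 (r = 0.757) and Krt8 (r = 0.623), while Krt7 (r = 0.251), Cldn4 (r = 0.214) and Krt13 (r = 0.103) were lower. Of 4 lacrimal genes, 2 did, Wfdc2 (r = 0.66) and Lpo (r = 0.618). Without Control P1.hMR rat 5 and UVB P1.hMR rat 4, the r was 0.664 for Wfdc2 and 0.263 for Lpo. Genes of the B lineage factor and plasma cell lists were also found among the higher ranks. Ikzf3, a factor of B, T and plasma cells, stood at rank 17 (r = 0.793). Of 10 plasma cell genes 4 had an r above 0.5, among them Slamf7 at rank 65 (r = 0.745) and Cd38 at rank 151 (r = 0.694). Ikzf3, Slamf7 and Cd38 reached at most 1.32, 1.51 and 2.06 TPM. Without the same 2 rats, their r was 0.822, 0.461 and 0.731. The rest of the 4, Fkbp11 (r = 0.573) and Hsp90b1 (r = 0.559), then had 0.382 and 0.563. Jchain stood at rank 3115 (r = 0.347) and Cd79a at rank 8481 (r = 0.023). The median r was 0.748 over the goblet cell, 0.331 over the conjunctival, 0.37 over the lacrimal, 0.288 over the plasma cell and 0.335 over the B lineage factor list.

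Agr2 itself showed how the pattern within groups differs from that between them. In UVB WT rats it measured 10.41, 2.05 and 2.82 TPM, and the rat at 10.41 TPM was the one with the highest Pigr of that group. In Control WT rats Agr2 was 0.67, 0.58, 1.84 and 2.03 TPM while Pigr was between 2.88 and 4.11 TPM. Agr2 was not called for UVB in either genotype, whereas Pigr fell in P1.hMR rats; the difference between the genes was not tested.

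**Figure D5:**
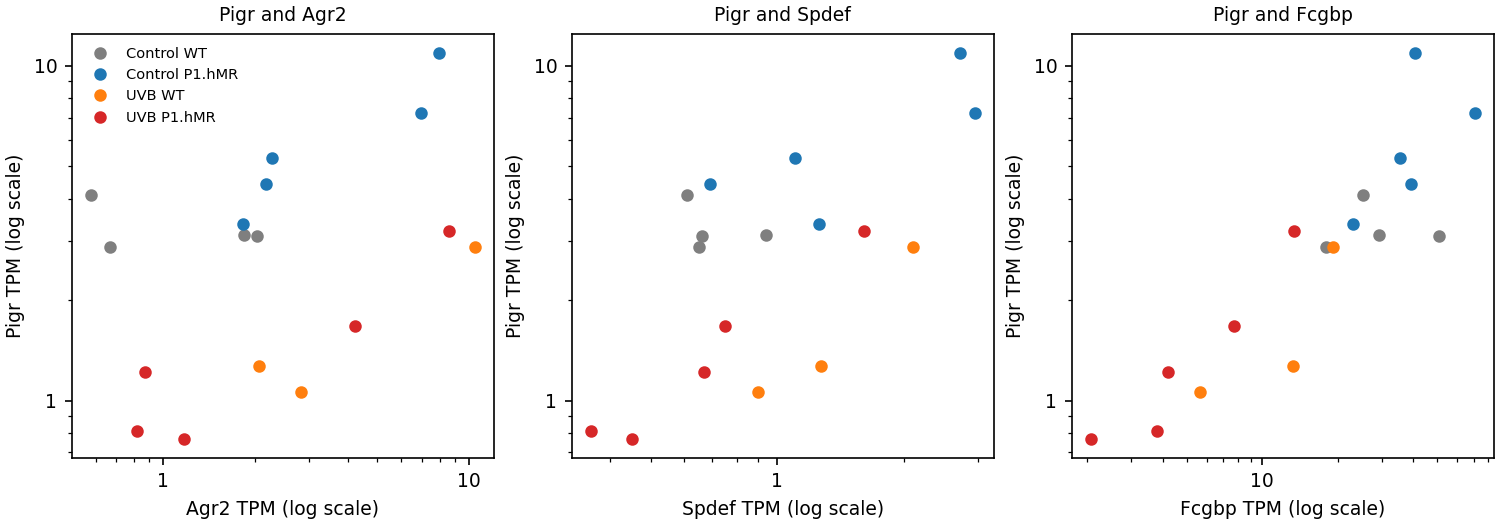
Pigr TPM (vertical axes, log scale) against Agr2, Spdef and Fcgbp TPM (horizontal axes, log scale) in the 17 rats, coloured by group. Outside the Control WT group, rats with more Agr2 or Spdef tend to have more Pigr than the others of their group, and UVB rats lie lower in Pigr than controls at similar Agr2.

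For Jchain the first 5 genes were Ccdc50 (r = 0.861), Sh3tc2, Elk4, Tom1l1 and Pxdc1, and for Cd79a they were Caap1 (r = 0.79), Trmt5, Zfp365, Evi2a and Icoslg. None of these 10 was in a list of B cell or plasma cell genes. Jchain and Cd79a themselves had an r of 0.192 with each other. Ighm stood at rank 581 for Jchain (r = 0.557) and at rank 68 for Cd79a (r = 0.619).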

How the data were processed

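RNA from the MG of 17 rats was sequenced and 1 column per rat was deposited. Per the study's methods and the submitters' processing notes, reads were checked with FastQC, trimmed with Trimmomatic and aligned to rn7. The methods name STAR for the alignment and RSEM for the quantification. The authors deposited TPM with 2 decimals for 17251 genes. DRAGEN and Picard are also named, without a stated role. Control rats were counted as rats and UVB samples as eyes in the methods, and 1 column was taken as 1 rat, after the labels. P-values measure the spread between these rats.

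TPM is not a count, so the DESeq2 test of the study was replaced. Genes reaching 1 TPM in 3 or more rats, 13105 in all, were fitted together on log2(TPM + 1) with limma 3.58.1 in R 4.3.3, using 4 group means and a variance trend. Calls needed a Benjamini-Hochberg adjusted p under 0.05 over all genes tested and a log2 fold change of 0.5 or more in size. The p-values are two-sided. The model was tested on simulated data. Tables and figures used Python 3.11.15, pandas 2.3.3, scipy 1.17.1 and matplotlib 3.10.9.

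The 7 genes, the gene lists and the tests were chosen with earlier results of these data known. Genes of each list were named where called in a comparison, at most 4 per list and comparison, and the 5 genes most like each tested member were named. Other list genes were named after their values were seen. Alternatives were a pseudocount of 0.1, no filter, a stricter filter (mean of 5 TPM or more), median-of-ratios scaling, quantile normalization, only the groups compared, no variance trend, sample weights, no fold change threshold, a replicate block and each rat left out. Promoters came from RefSeq (GRCr8) and the deposited values from rn7, so no coordinates were carried between them. Some genes of the lists are not reported here.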

Additional observations from a re-analysis of the deposited data

Results flagged for a closer look

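Some values of the lowest genes stood apart from the other rats of their group by Dixon's test, a rule that flags about 1 in 20 groups by chance. They were Mzb1 in UVB P1.hMR rat 1 (0.09 TPM), Cd79b in Control P1.hMR rat 1 (0.21 TPM) and UVB P1.hMR rat 5 (0.06 TPM), and Ms4a1 in Control WT rat 1 (0.05 TPM) and Control P1.hMR rat 5 (0.06 TPM). In each case the other rats of the group were listed at 0, so any value above 0 is marked. Jchain, Cd79a and Pigr had no such rat in the groups of 4 or 5, and the group of 3 was not examined this way.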

How the results depend on the processing

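The number of the 7 genes called in each comparison did not change under any setting tried or with any rat left out. With a mean of at least 5 TPM no gene of the 7 was tested, so that setting gave no value. Cd79a could not be tested in fits of only the P1.hMR groups or only the control groups, where it missed the filter. Pigr ranged from -2.03 to -1.30 for UVB in P1.hMR rats, with limma adjusted p from 0.000134 to 0.00181, and from -1.01 to -0.53 for UVB in WT rats, with limma adjusted p from 0.0634 to 0.345. Replicate numbers showed no clear pairing of the rats. Same-numbered rats of 2 groups had a median correlation of their deviations of -0.0051 over 22 pairs, of which 4 were above 0.1. Differently numbered rats had a median of 0.008 over 85 pairs, of which 14 were above 0.1. The highest values were 0.235 and 0.181. Whether rats shared a litter or batch cannot be told from these numbers. With the number as a replicate block, Pigr stood at -1.50 for UVB in P1.hMR rats, -0.58 in WT rats, -1.04 averaged over genotypes and -0.92 for the interaction, with 1, 0, 1 and 0 genes called.

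Small fold changes turned sign, none of them called. Jchain for UVB in WT rats was 0.024 with quantile normalization, 0.053 with the replicate block and -0.21 to 0.14 with a rat left out. Jchain for UVB averaged over genotypes was 0.0026 with quantile normalization and -0.14 to 0.033 with a rat left out. Jchain between genotypes was -0.063 under UVB and -0.0092 averaged over treatments with sample weights, and under UVB -0.095 to 0.26 with a rat left out. Its interaction was -0.21 to 0.14 with a rat left out. Cd79a for UVB in P1.hMR rats was -0.024 with a pseudocount of 0.1, -0.028 with sample weights and -0.063 to 0.15 with a rat left out. Pigr between genotypes under UVB was -0.33 to 0.15 with a rat left out, 0.15 being without UVB WT rat 1. The causes were not tested. Of the other fold changes, 341 with a rat left out and 150 under other settings kept their direction and call. TPM without read counts limits what can be said of Mzb1, Cd79b, Ms4a1 and Pou2af1.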
